A study of Mus musculus with 24 samples.

Results

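The genes described here are 10 transcription factors that mark mesenchymal cells: *Twist1*, *Twist2*, *Prrx1*, *Prrx2*, *Snai1*, *Snai2*, *Zeb1*, *Zeb2*, *Tcf4* and *Runx1*. They were chosen by symbol, each matched 1 of the 47937 gene entries of the count table, and all 10 were among the 18565 genes that passed the filter on low counts and were tested. RNA was sequenced from mouse embryonic fibroblasts (MEF) in 8 conditions with 3 biological replicates each, to ask what happens to transcription as the 6 enzymes that methylate lysine 9 of histone H3 (H3K9 KMT) are lost. For these genes the question is whether the fibroblast program holds. WT cells carry a conditional *Eset1* (*Setdb1*) allele with an inducible Cre recombinase and received no 4-hydroxytamoxifen (4-OHT), and *E1* is the same clone after 4-OHT. In the first series, *E1 S1S2* also lacks *Suv39h1* and *Suv39h2*, and *6KO1* was derived from that clone by further inactivation of *Eset2* (*Setdb2*), *G9a* (*Ehmt2*) and *Glp* (*Ehmt1*). The second series starts from an *Eset2*-mutant clone without 4-OHT (*E2*) and with it (*E1E2*), adds loss of *G9a* and *Glp* (*E1E2 G9Gl*) and then of *Suv39h1* and *Suv39h2* (*6KO2*). All conditions except WT and *E2* were treated with 4-OHT. All lines, WT included, carry the conditional allele. After the other edits a tamoxifen-inducible Cre with a puromycin resistance gene under the CAGGS promoter was put into the lines, which were kept in puromycin, and whether WT also received it is not given in the sources used here. The other mutations were made with CRISPR/Cas9 in sorted single cells, so each condition is 1 clone. WT and *E1*, and *E2* and *E1E2*, compare 1 clone without and with 4-OHT, where the drug and the loss of *Eset1* cannot be told apart, and in the other comparisons the mutations and the clone cannot be told apart.

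These factors sit at the top of the mesenchymal program. *Twist1* and *Twist2* encode basic helix-loop-helix proteins that bind E-boxes (CANNTG) as dimers with E proteins such as the product of *Tcf4*, and Id proteins titrate E proteins away from DNA. *Snai1*, *Snai2*, *Zeb1* and *Zeb2* encode zinc finger repressors that recognise the E-box form CAGGTG and are known for silencing epithelial genes such as *Cdh1*. *Prrx1* and *Prrx2* encode paired-type homeodomain proteins of limb and craniofacial mesenchyme, and *Runx1* encodes a Runt-domain factor best known from blood that is also active in mesenchymal cells.

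*Twist1* and *Snai1* each fell in 1 condition only and were downregulated there, and *Twist2* rose where *Twist1* fell, as *Prrx2* did. The sequences before the start sites of *Twist1*, its paralog *Twist2* and *Snai1*, whose RefSeq and GENCODE starts agree, are shown. They are the 250 bases before the RefSeq start (GRCm38.p6, plus strand), at chr12:33957421-33957670, chr1:91801211-91801460 and chr2:167537945-167538194, with any CANNTG in capitals.
Twist1: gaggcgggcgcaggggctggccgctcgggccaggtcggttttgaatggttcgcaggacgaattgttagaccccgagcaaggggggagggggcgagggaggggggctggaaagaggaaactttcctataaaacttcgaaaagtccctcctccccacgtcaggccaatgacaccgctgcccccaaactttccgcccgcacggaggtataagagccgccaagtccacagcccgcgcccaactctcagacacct
Twist2: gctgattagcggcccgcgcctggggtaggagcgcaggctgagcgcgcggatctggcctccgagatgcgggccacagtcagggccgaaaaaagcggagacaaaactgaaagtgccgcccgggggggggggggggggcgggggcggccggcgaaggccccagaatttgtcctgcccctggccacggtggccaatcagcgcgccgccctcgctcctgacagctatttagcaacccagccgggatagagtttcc
Snai1: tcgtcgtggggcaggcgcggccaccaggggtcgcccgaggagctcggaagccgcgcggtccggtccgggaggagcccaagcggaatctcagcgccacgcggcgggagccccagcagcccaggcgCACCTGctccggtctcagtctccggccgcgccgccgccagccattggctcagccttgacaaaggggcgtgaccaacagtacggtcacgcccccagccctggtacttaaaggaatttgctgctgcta
These windows hold 18, 23 and 27 CG dinucleotides. RefSeq promoter windows (250 bases before to 50 after the start) were matched for 7 of the 10 genes, all but *Snai2*, *Zeb1* and *Tcf4*. The start used for the *Prrx2* window lies 10395 bases from the start of the gene in GENCODE, and the bases after the start in the *Zeb2* window were not found in its GENCODE transcripts. On either strand, 72.3% of 32851 such windows hold a CANNTG and 20.2% hold the CAGGTG form, which is counted within it. *Snai1* has 1 CANNTG, which reads CACCTG on the strand shown and so is of the CAGGTG form, and *Runx1* has 3, of which 1 is of that form. The windows of *Twist1*, *Twist2*, *Prrx1*, *Prrx2* and *Zeb2* have 0.

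Levels are normalized counts, that is counts divided by library size after TMM scaling. Libraries held 24737307 to 37419816 counts. WT replicate 2 and *E2* replicate 2 resembled their own condition least, with mean correlations of 0.9884 and 0.9890 to the other 2 libraries over genes, against 0.9933 at the most. Of 23 pairs of a targeted KMT gene and a condition, 21 had lower RNA than WT. The exceptions were *Suv39h2* in *E1 S1S2* (log2 fold change 0.76) and *6KO1* (0.14), and frameshift mutations need not lower RNA. Of all genes, 6.6% in *E1* to 30.3% in *6KO1* were lower at the same threshold. Untargeted KMT genes moved as well. *Suv39h2* was at -1.47 in *E1E2 G9Gl*, against -0.96 in *6KO2* where it is mutated, and *Setdb2* was at -0.61 in *E1 S1S2*. *Ehmt2* went the other way in *E1 S1S2* (0.65) and *E2* (0.43). Lower RNA alone therefore does not mark a targeted gene. *Setdb1* RNA did not separate *E1E2* from *E2*, so those 2 conditions are named by their labels. The induced deletion removes only some exons of this gene, so counts over the whole gene need not show it. The fibroblast label was checked on *Vim*, with 47567 to 50934 counts in WT, and *Fn1*, with 26508 to 42491, while *Cdh1* had 0.913 to 2.01. Other markers were less clear: *Dcn* had 25.6 to 43.8 counts in WT, *Fap* was at 0, and the 32 epithelial genes described further on summed to 3628 to 3996.

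Per kilobase of exon, WT levels of the 10 factors ran from 47.5 normalized counts for *Snai1* to 239 for *Twist2*, where the median of all genes tested was 102. *Twist1* (207), *Zeb1* (200) and *Prrx1* (191) followed *Twist2*, and *Zeb2* (78.4) and *Tcf4* (99.2) lay below that median with *Snai1*. A gene is said to have risen or fallen where edgeR's quasi-likelihood test gave an adjusted p of at most 0.01 (Benjamini-Hochberg over all genes tested), and to be upregulated or downregulated where the change was also at least 2-fold. Because the RNA comes from bulk cultures, less RNA per cell and fewer cells of a type cannot be told apart.

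**Figure D1:**
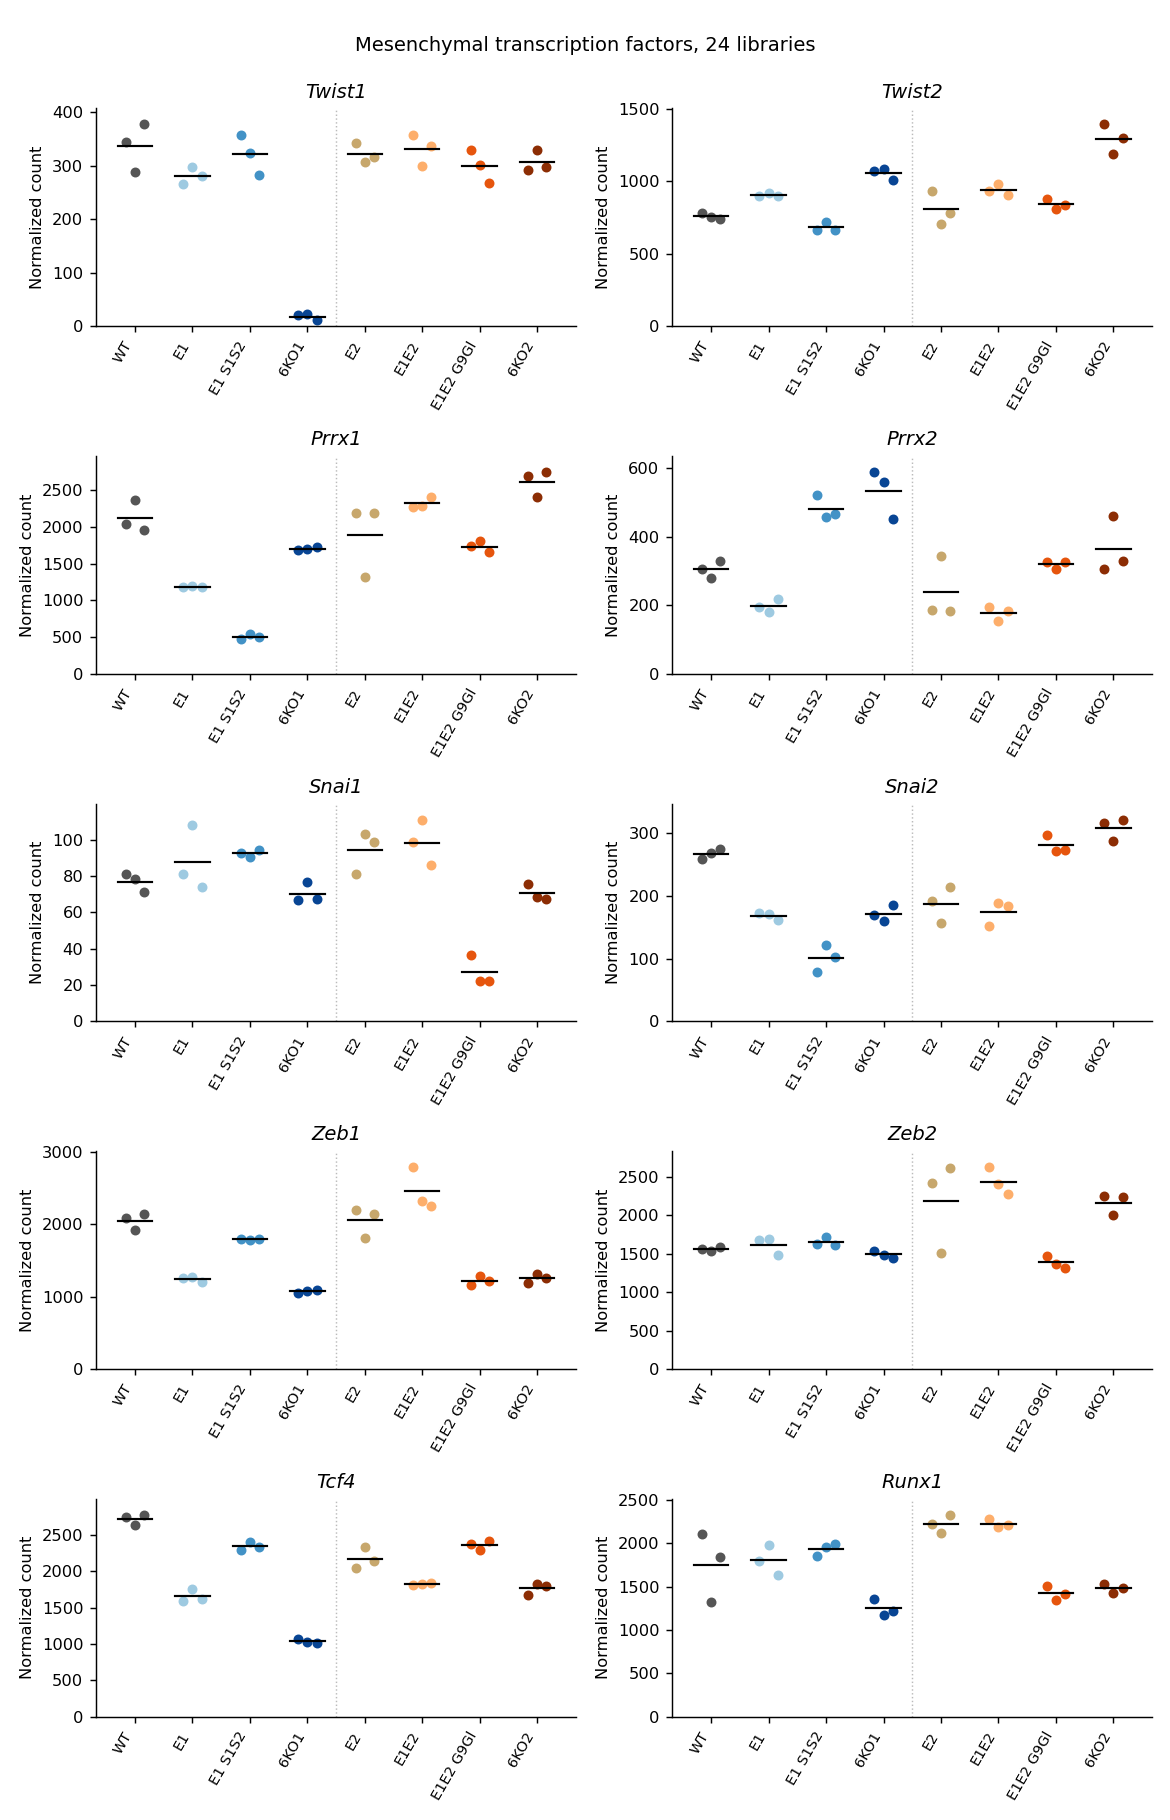
Normalized counts (linear axes from 0) of the 10 factors in each of the 24 libraries, by condition, with points for replicates 1 to 3 from left to right, a bar at the mean and a dotted line between the clones of the first and second series. *Twist1* sits at 10.8 to 21.8 in *6KO1* and at 266 or above everywhere else.

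Most of the factors stayed within 2-fold of WT in most conditions. Of 70 pairs of a factor and a mutant condition, 31 passed the test against WT, 22 lower and 9 higher, and only 5 were 2-fold changes, each of them a downregulation: *Prrx1* and *Snai2* in *E1 S1S2*, *Twist1* and *Tcf4* in *6KO1*, and *Snai1* in *E1E2 G9Gl*. All 7 comparisons share the same WT libraries. In *E1*, 4 of the 10 factors fell and 0 rose, where 6.6% of all genes fell and 6.72% rose. In *E1 S1S2*, 3 fell and 1 rose (background 21.9% and 19.9%). In *6KO1*, 5 fell and 2 rose (30.3% and 35.9%).

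In *E2*, 2 fell and 1 rose (background 14.4% and 12.5%). In *E1E2*, 3 fell and 3 rose (16.9% and 16.3%). In *E1E2 G9Gl*, 3 fell and 0 rose (28.3% and 30.9%). In *6KO2*, 2 fell and 2 rose (25% and 29.5%). Downregulated factors numbered 2 in *E1 S1S2*, 2 in *6KO1*, 1 in *E1E2 G9Gl* and 0 elsewhere. Of all genes 5.11% were downregulated in *E1 S1S2*, 10.2% in *6KO1* and 8.41% in *E1E2 G9Gl*, against 1.99% in *E1*, 3.21% in *E2*, 3.22% in *E1E2* and 5.39% in *6KO2*. None of the 10 factors was upregulated in any condition. Of all genes 20.6% were upregulated in *6KO1*, 16.8% in *E1E2 G9Gl*, 15.3% in *6KO2*, 6.65% in *E1 S1S2*, 5.51% in *E1E2*, 2.9% in *E2* and 2.27% in *E1*. The number of factors that passed was 6 in *E1E2*, where 33.2% of all genes passed, and 3 in *E1E2 G9Gl*, where 59.1% did. With 1 library left out these counts ran from 4 to 6 and from 2 to 4, so the ranges met. The median absolute log2 fold change of the 10 factors was 0.28 in *6KO2* against 0.47 over all genes, 0.56 against 0.64 in *6KO1* and 0.44 against 0.18 in *E1*. The medians over all genes likewise include genes of few counts, and genes of a level like that of the factors were not compared.

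**Figure D2:**
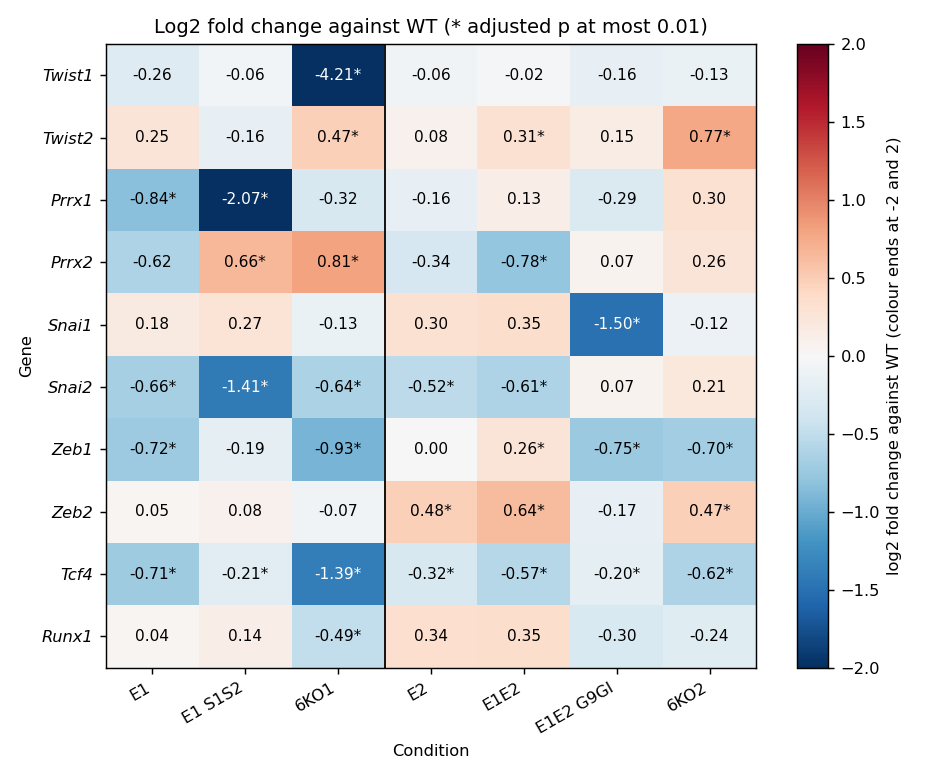
Log2 fold change against WT of the 10 factors (rows) in the 7 mutant conditions (columns, with a line between the series), with colours ending at -2 and 2 and asterisks where the adjusted p is at most 0.01 (edgeR). *Tcf4* has an asterisk in each of the 7 columns, and *Twist1* only in *6KO1* (-4.21).

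*Twist1* was downregulated to a few percent of its WT level in *6KO1* and did not pass the test in any other condition. *Twist1* (ENSMUSG00000035799) lies on chromosome 12 from 33957671 to 33959829 (GRCm38, plus strand) and has 2 exons. Its normalized counts were 345, 288 and 377 in WT and 21.1, 21.8 and 10.8 in *6KO1*. In *6KO2*, which lacks the same 6 enzymes, they were 292, 330 and 298, and in *E1 S1S2*, the clone from which *6KO1* was derived, 358, 324 and 283. Each *6KO1* library was thus below every library of the other 7 conditions. The log2 fold change of *6KO1* was -4.21 ± 0.17 (SE, adjusted p = 5.0e-16, edgeR) against WT, which leaves 5.42% of the WT level, -4.14 ± 0.17 against *E1 S1S2* (adjusted p = 1.1e-15) and -4.07 ± 0.17 against *6KO2* (adjusted p = 3.5e-15). In the other 6 conditions it lay between -0.26 and -0.022 against WT, and none passed the test. In the order of levels, the 7 other conditions from WT (mean 337 ± 45.5, SD, n = 3) down to *E1* (281 ± 16.2) overlapped with their neighbours.

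The genes around *Twist1* did not share its change. Within 1000 kb, 4 other genes were tested, with log2 fold changes in *6KO1* of 1.25 for *F730043M19Rik*, 0.63 for *Atxn7l1*, -0.95 for *Twistnb* and 3.45 for *Hdac9*, a low-count gene with a mean of 12.2 counts. The median of these 4 was 0.94 and that of all tested genes on chromosome 12 was 0.11. By likeness over the 8 condition means, the genes closest to *Twist1* among 9861 genes with a range of at least 1 log2 unit were *Gm14057* (Pearson r = 0.9923), *Celf2* (0.9915), which encodes an RNA-binding splicing regulator and went from 1660 counts in WT to 176 in *6KO1*, and *F830115B05Rik* (0.9913). These correlations describe 8 means from shared libraries and for *Twist1* rest on 1 low condition.

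*Twist2* (chromosome 1, 91801461 to 91848028, plus strand) rose in both *6KO* lines. It had 783, 752 and 741 normalized counts in WT, 1071, 1085 and 1004 in *6KO1* and 1390, 1183 and 1295 in *6KO2*. The changes were 0.47 ± 0.077 in *6KO1* (adjusted p = 7.9e-06, edgeR) and 0.77 ± 0.077 in *6KO2* (1.1e-08), and *6KO1* was lower than *6KO2* by 0.29 on the log2 scale (-0.29 ± 0.076, adjusted p = 2.1e-03). *Twist2* also rose in *E1E2* (0.31, adjusted p = 2.6e-03), a call lost without WT replicate 3 (0.29) or *E1E2* replicate 2 (0.27) or with only the 6 libraries compared in the fit, and fell from *E1* to *E1 S1S2* (-0.41, adjusted p = 1.5e-04). An antisense gene, *Gm29100*, shares 1477 exon bases with *Twist2* and held 20 to 114 raw counts per library. Whether the counting used the strand is not given in the sources used here, so reads over that stretch are uncertain.

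*Prrx1* was lower in *E1*, lower again in *E1 S1S2*, and higher in *6KO1* than in either. *Prrx1* lies on chromosome 1 from 163245119 to 163313710 (minus strand). Its normalized counts were 2032, 2366 and 1950 in WT, 1174, 1193 and 1183 in *E1*, 477, 540 and 501 in *E1 S1S2* and 1685, 1694 and 1718 in *6KO1*. None of these 4 groups overlapped. The log2 fold change was -0.84 ± 0.12 in *E1* (adjusted p = 1.4e-05, edgeR) and -2.07 ± 0.13 in *E1 S1S2* (4.1e-12), or 23.9% of WT. From *E1* to *E1 S1S2* it fell by a further 1.23 on the log2 scale (-1.23 ± 0.13, adjusted p = 3.8e-08), and from *E1 S1S2* to *6KO1* it rose by 1.75 ± 0.13 (3.4e-11), 336% of the earlier level. In *6KO1* it was at -0.32 against WT, with an adjusted p of 2.0e-02 that did not pass, though it passed with only the 6 libraries compared in the fit or without a filter on low counts.

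In the second series *Prrx1* did not show this course. It had 2182, 1314 and 2187 counts in *E2*, where replicate 2 stood apart, and 2271, 2280 and 2403 in *E1E2*. *E1E2 G9Gl* (1740, 1801 and 1650) and *6KO2* (2688, 2404 and 2744) did not pass against WT (-0.29 and 0.30). Without WT replicate 2, *6KO2* was at 0.39 and passed (adjusted p = 0.00811, edgeR). Between them *Prrx1* rose by 0.59 (adjusted p = 2.0e-04). A long noncoding RNA gene and an unclassified transcript on the same strand inside the *Prrx1* gene, *Gm26523* and *Gm37644*, had log2 fold changes of -2.14 and -1.56 in *E1 S1S2*, and *Gm26523* was also among the 3 genes most like *Prrx1* over the 8 condition means (r = 0.9380), after *Gm8773* (0.9455) and before *Slc16a6* (0.9371). They share no exon base with *Prrx1*, but these are total RNA libraries. Whether their counts are separate from unspliced *Prrx1* RNA was not tested.

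*Prrx2* (chromosome 2, 30834972 to 30881251, plus strand) moved the other way in *E1 S1S2*. It had 306, 279 and 330 normalized counts in WT, 196, 181 and 217 in *E1*, 520, 458 and 467 in *E1 S1S2* and 588, 559 and 450 in *6KO1*. It rose by 0.66 ± 0.17 in *E1 S1S2* (adjusted p = 2.5e-03, edgeR) and 0.81 ± 0.17 in *6KO1* (2.1e-04), was upregulated from *E1* to *E1 S1S2* (1.28 ± 0.18, 3.1e-06), and fell in *E1E2* (-0.78 ± 0.19, 1.6e-03). The call in *E1 S1S2* was lost without replicate 1 of that condition (0.60) and the one in *E1E2* without its replicate 2 (-0.69). In *E1* it was at -0.62 with an adjusted p of 1.8e-02 and passed with DESeq2 or without a filter on low counts. In *E2*, with 186, 342 and 183 counts, it was at -0.34 and did not pass, and without replicate 2, the high library, at -0.72 and passed (adjusted p = 0.00101). Over the 8 condition means the 2 *Prrx* genes had a Pearson r of -0.36, *Twist1* and *Twist2* -0.35, *Snai1* and *Snai2* -0.54, and *Zeb1* and *Zeb2* 0.57, given as a description of 8 means each.

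*Snai1* (chromosome 2, 167538195 to 167542814, plus strand) had the lowest level per kilobase in WT and fell in 1 condition. Its normalized counts were 81.0, 78.5 and 71.3 in WT and 36.7, 22.0 and 22.0 in *E1E2 G9Gl*. In *E1E2*, the step before, they were 98.5, 111 and 85.8, and in *6KO2*, the step after, 75.5, 68.6 and 67.4. All *E1E2 G9Gl* libraries were below all others. The log2 fold change was -1.50 ± 0.19 against WT (adjusted p = 2.9e-07, edgeR) and -1.85 ± 0.19 against *E1E2* (8.5e-09), and *6KO2* was higher than *E1E2 G9Gl* by 1.37 ± 0.19 (2.6e-06). In *6KO1*, which also lacks *G9a* and *Glp*, *Snai1* had 66.8, 76.6 and 67.5 counts and a change of -0.13 that did not pass (adjusted p = 0.47). The genes most like *Snai1* were *Zfp827* (r = 0.9873, 738 counts in WT and 358 in *6KO1*), *Gm5784* (0.9803) and *Mtln* (0.9771).

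*Snai2* fell in 5 of the 7 conditions and did not pass in *E1E2 G9Gl* and *6KO2*. It had 258, 268 and 274 normalized counts in WT, 173, 171 and 161 in *E1* and 78.3, 121 and 103 in *E1 S1S2*. In *6KO1* they were 170, 159 and 186 and in *6KO2* 316, 287 and 321. All libraries of *6KO1* were therefore below, and all of *6KO2* above, those of WT. The log2 fold changes were -0.66 ± 0.12 in *E1* (adjusted p = 2.9e-04, edgeR), -1.41 ± 0.13 in *E1 S1S2* (3.3e-09), -0.64 ± 0.12 in *6KO1* (6.4e-05), -0.52 ± 0.12 in *E2* (1.9e-03, lost without *E2* replicate 2, at -0.40, or with only the 6 libraries compared, at -0.49) and -0.61 ± 0.12 in *E1E2* (3.0e-04). In *6KO2* *Snai2* was at 0.21 with an adjusted p of 0.12. *Snai2* lies on chromosome 16 from 14705852 to 14709385 (plus strand).

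*Zeb1* had lower RNA in both *6KO* lines, while *Zeb2* did not fall in any condition. *Zeb1* had 2084, 1917 and 2145 normalized counts in WT, 1256, 1267 and 1198 in *E1*, 1051, 1073 and 1093 in *6KO1* and 1193, 1317 and 1261 in *6KO2*. It fell by 0.93 on the log2 scale in *6KO1* (-0.93 ± 0.076, adjusted p = 1.7e-10, edgeR), by 0.70 in *6KO2* (3.3e-08), by 0.72 in *E1* (1.4e-07) and by 0.75 in *E1E2 G9Gl* (8.8e-09). It was highest in *E1E2*, with 2790, 2318 and 2261 counts and a change of 0.26 (adjusted p = 6.1e-03) that was lost without WT replicate 1 (0.27) or 2 (0.22) or *E1E2* replicate 1 (0.16) or with only the 6 libraries compared. From *E1E2* to *E1E2 G9Gl* *Zeb1* fell by close to 2-fold (-1.01 ± 0.076, 6.4e-11). That step stayed past the test but was under 2-fold with RLE factors, with DESeq2, with genes above a mean count of 100, and without replicate 1 of *E1E2* (-0.91) or of *E1E2 G9Gl*. A processed transcript on the opposite strand, *Gm10125*, shares 198 exon bases with *Zeb1* and had at most 21 raw counts.

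*Zeb2* (chromosome 2, 44983632 to 45117395, minus strand) had 1564, 1537 and 1591 normalized counts in WT and rose in *E2* (2424, 1504 and 2609), *E1E2* (2622, 2410 and 2272) and *6KO2* (2243, 2001 and 2237). These are conditions of the second series, but the fourth, *E1E2 G9Gl*, had 1474, 1367 and 1319. The changes were 0.48 ± 0.12 in *E2* (adjusted p = 3.2e-03, edgeR), where replicate 2 lay below the WT libraries and the other replicates above them, 0.64 ± 0.12 in *E1E2* (1.5e-04) and 0.47 ± 0.12 in *6KO2* (1.8e-03). The call in *E2* was lost without its replicate 1 (0.39) or 3 (0.33) or with only the 6 libraries compared, and without replicate 2 the change was 0.69. From *E1E2* to *E1E2 G9Gl* *Zeb2* fell by 0.81 (3.6e-06). In the first series it lay between -0.071 and 0.079 and did not pass. The antisense gene *Zeb2os* shares 653 exon bases with *Zeb2* and had 2 to 17 raw counts.

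*Tcf4* was the only factor of the 10 that fell in all 7 conditions. It encodes an E protein, the partner class of the Twist proteins, and like *Zeb1* lies on chromosome 18. *Tcf4* had 2741, 2635 and 2776 normalized counts in WT, 1595, 1759 and 1619 in *E1*, 1069, 1028 and 1015 in *6KO1* and 1672, 1828 and 1802 in *6KO2*. Every mutant library was below every WT library. The log2 fold change was -1.39 ± 0.055 in *6KO1* (adjusted p = 3.4e-16, edgeR), -0.71 ± 0.054 in *E1* (5.8e-10), -0.62 ± 0.054 in *6KO2* (9.6e-10) and -0.57 ± 0.054 in *E1E2* (1.1e-08). It was smaller in *E2* (-0.32), *E1 S1S2* (-0.21) and *E1E2 G9Gl* (-0.20). In *E1 S1S2* *Tcf4* was higher than in *E1* by 0.50 (8.1e-08), so its level did not fall with each further mutation. With only the 6 libraries compared in the fit, *Tcf4* in *E2* (-0.30), *E1 S1S2* (-0.18) and *E1E2 G9Gl* (-0.18) no longer passed. In *E1 S1S2* and *E1E2 G9Gl* it also did not pass without a filter on low counts or with genes above a mean count of 100. The call in *E1 S1S2* was also lost without its replicate 1 and that in *E1E2 G9Gl* without its replicate 2 (-0.17).

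*Runx1* (chromosome 16, 92601466 to 92826149, minus strand) fell in *6KO1*, and whether it passed elsewhere depended on which WT libraries were used. It had 2108, 1317 and 1837 normalized counts in WT, 1353, 1175 and 1214 in *6KO1* and 1535, 1421 and 1480 in *6KO2*. WT replicate 2 lay within the *6KO1* range and below the *6KO2* libraries. The change in *6KO1* was -0.49 ± 0.11 (adjusted p = 2.7e-04, edgeR), and -0.66 without WT replicate 2, and the call was lost with only the 6 libraries compared. In *E1E2 G9Gl* it was -0.30 (1.7e-02) and in *6KO2* -0.24 (4.9e-02), which became -0.47 (adjusted p = 5.05e-06) and -0.42 (3.42e-05) without WT replicate 2. In *E2* and *E1E2*, with 2123 to 2326 and 2182 to 2282 counts, it was at 0.34 and 0.35 and did not pass, and both became 0.50 and passed without WT replicate 1.

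The 2 lines that lack all 6 enzymes were compared directly. Of the 10 factors 6 were lower in *6KO1* than in *6KO2* and 1, *Prrx2*, was higher, where 24.2% of all genes were lower and 25% higher; *Twist1* alone was a 2-fold difference (7.1% of all genes were lower by that much). Besides *Twist1* and *Twist2*, *6KO1* was lower in *Snai2* (-0.85 ± 0.12, adjusted p = 2.7e-06, edgeR), *Tcf4* (-0.77 ± 0.055, 4.5e-11), *Prrx1* (-0.62 ± 0.12, 1.0e-04) and *Zeb2* (-0.54 ± 0.12, 5.4e-04), and higher in *Prrx2* (0.55 ± 0.17, 8.2e-03). The 3 factors that did not pass were *Snai1* (95% interval of the difference -0.34 to 0.33), *Zeb1* (-0.39 to -0.07) and *Runx1* (-0.47 to -0.023). The *Prrx2* call was lost without any of 4 libraries, replicates 1 and 2 of *6KO1* and 1 and 3 of *6KO2*, and the *Twist2* call without *6KO1* replicate 3 or *6KO2* replicate 1.

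**Figure D3:**
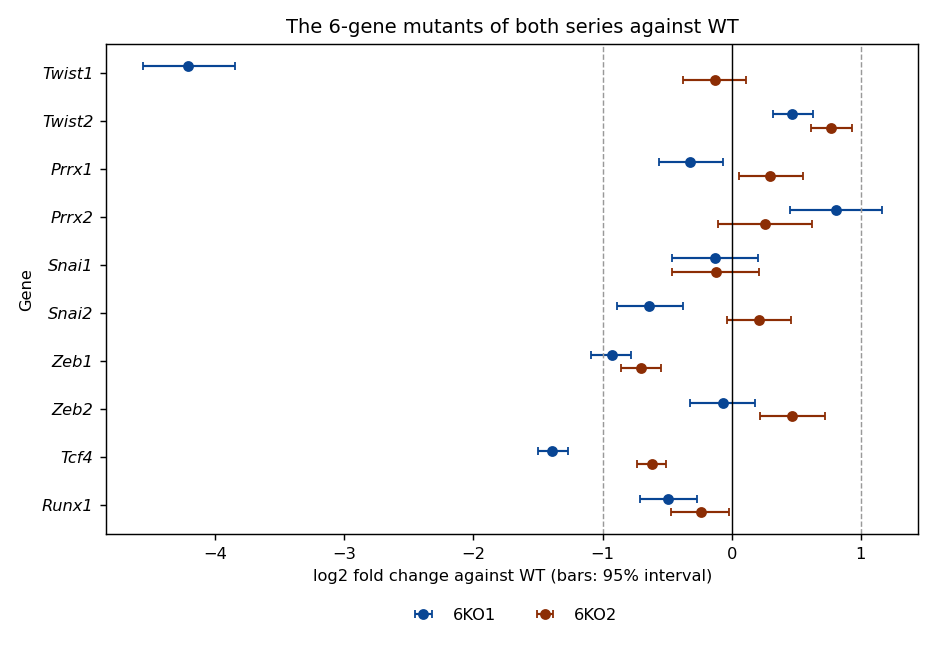
Log2 fold change against WT (x axis) of the 10 factors in *6KO1* and *6KO2*, with 95% intervals from the edgeR fit and dashed lines at -1 and 1. *Twist1* at -4.21 in *6KO1* and -0.13 in *6KO2* is the widest gap, and the intervals of *Snai1* nearly coincide.

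Both starting clones are labelled without and with 4-OHT, the drug used to induce deletion of *Eset1*, and the comparison of the 2 effects was added after the values were seen. *Setdb1* RNA was at -0.57 in *E1* against WT, but at -0.31 against WT in both *E2* and *E1E2*. A fall of *Setdb1* RNA with 4-OHT was thus seen in the parent clone only (*E1E2* against *E2* 0.007, adjusted p = 0.99, edgeR). The induced deletion removes only some exons, so counts over the whole gene cannot tell whether *Eset1* was deleted in *E1E2*. The paper reports that western blots of its mutant lines showed efficient induced deletion of *Eset1*. In the parent clone (*E1* against WT) *Prrx1*, *Snai2*, *Zeb1* and *Tcf4* fell. In the *Eset2*-mutant clone (*E1E2* against *E2*) 1 factor passed, *Tcf4* (-0.25 ± 0.054, adjusted p = 1.8e-03, edgeR), which was lost without *E2* replicate 2 (-0.19) or *E1E2* replicate 1 (-0.24), where 5.36% of all genes fell and 6.58% rose. The difference between the 2 effects passed for 3 factors, all with a higher value in the *Eset2*-mutant clone, where 4.4% of all genes were higher and 4.49% lower. *Prrx1* went from -0.84 to 0.29, a difference of 1.13 ± 0.17 (4.2e-05), *Zeb1* from -0.72 to 0.26, a difference of 0.98 ± 0.11 (5.0e-07), and *Tcf4* from -0.71 to -0.25, a difference of 0.46 ± 0.076 (1.3e-04). *Snai2* differed by 0.57 with an adjusted p of 3.1e-02. The difference for *Prrx1* was 0.92 without *E2* replicate 2 and still passed (adjusted p = 5.88e-07). Each clone is 1 line, so the mutation and the clone cannot be told apart.

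**Figure D4:**
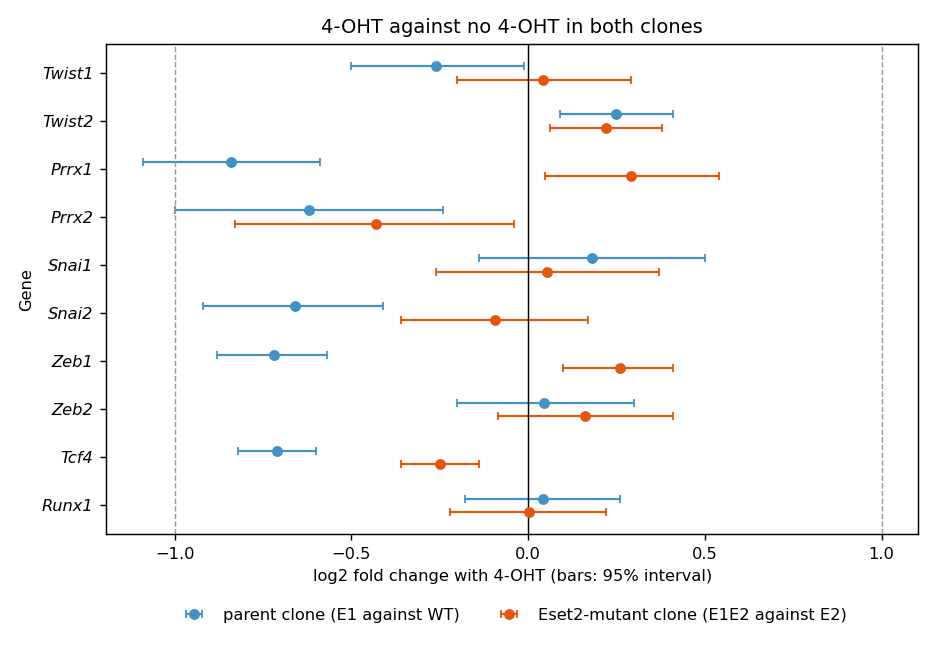
Log2 fold change with 4-OHT (x axis) of the 10 factors in the parent clone (*E1* against WT) and in the *Eset2*-mutant clone (*E1E2* against *E2*), with 95% intervals from the edgeR fit and dashed lines at -1 and 1. *Prrx1* and *Zeb1* lie at -0.84 and -0.72 in the parent and at 0.29 and 0.26 in the mutant clone.

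Step by step, factors moved both ways at each addition of mutations. From *E1* to *E1 S1S2*, *Prrx2*, *Zeb1* and *Tcf4* rose and *Twist2*, *Prrx1* and *Snai2* fell (background 16.1% and 17.3%). From *E1 S1S2* to *6KO1*, *Twist2*, *Prrx1* and *Snai2* rose and *Twist1*, *Zeb1*, *Tcf4* and *Runx1* fell (30.4% and 22.9%). From *E1E2* to *E1E2 G9Gl*, *Prrx2*, *Snai2* and *Tcf4* rose and 5 fell, *Prrx1*, *Snai1*, *Zeb1*, *Zeb2* and *Runx1* (28.7% and 24.7%). Of these the *Prrx1* call (-0.42) was lost without *E1E2* replicate 3 or without replicate 1 or 3 of *E1E2 G9Gl*, with values of -0.43 to -0.39. From *E1E2 G9Gl* to *6KO2*, *Twist2*, *Prrx1*, *Snai1* and *Zeb2* rose and *Tcf4* fell (21.3% and 22.3%). The 2 steps of a series share the libraries of the condition between them.

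Among the partners and cofactors of these proteins, the Id inhibitors were upregulated together. Of 12 such genes 11 were tested. *6KO1* had 3 upregulated and 1 downregulated, *6KO2* had 4 and 1, and *E1E2 G9Gl* had 3 and 1, where 20.6% and 10.2%, 15.3% and 5.39%, and 16.8% and 8.41% of all genes were. *E1* had 4 and 0, where 2.27% and 1.99% of all genes were, and at most 1 of the 11 was called in each of the other 3 conditions. The median log2 fold change of the list was -0.19 against 0.061 over all genes in *6KO1* and 0.23 against 0.041 in *6KO2*. The upregulated genes in *6KO1* were *Id1*, *Id2* and *Id3*, which are also known targets of BMP signals. *Id2* had 37.3, 47.5 and 40.1 normalized counts in WT, and *6KO1* had 1445, 1640 and 1648. *E1E2 G9Gl* had 1479, 1398 and 1471, and *6KO2* had 710, 615 and 641. In *E1 S1S2* it had 71.2, 73.4 and 63.9, so the 3 conditions without *G9a* and *Glp* were far above the other 5 conditions, the highest of which was *E1* at 101 to 137. The log2 fold change was 5.23 ± 0.16 in *6KO1* (adjusted p = 3.1e-18, edgeR), 5.11 in *E1E2 G9Gl* (4.3e-18) and 3.97 in *6KO2* (1.6e-15).

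*Id1* rose by 2.72 in *6KO1*, to 1393 to 1443 counts from 195 to 234 in WT, by 2.02 in *E1E2 G9Gl* and by 2.21 in *6KO2*. *Id3* rose by 2.69, 2.33 and 2.38. Both were also upregulated in *E1*, with 444 to 600 and 865 to 1005 counts, as was *Id2* (1.48). *Id1* and *Id3* did not pass in *E1 S1S2*. *Runx3*, a paralog of *Runx1*, went the other way: it had 404, 240 and 319 counts in WT, and only 71.2, 54.8 and 62.6 in *6KO1* and likewise 62.1, 49.2 and 57.4 in *6KO2*. Its changes were -2.35 ± 0.17 (1.3e-11) and -2.50 ± 0.17 (1.8e-11). It was also downregulated in *E2* (-1.14), *E1E2* (-1.17) and *E1E2 G9Gl* (-2.52, with 52.9 to 60.9 counts).

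**Figure D5:**
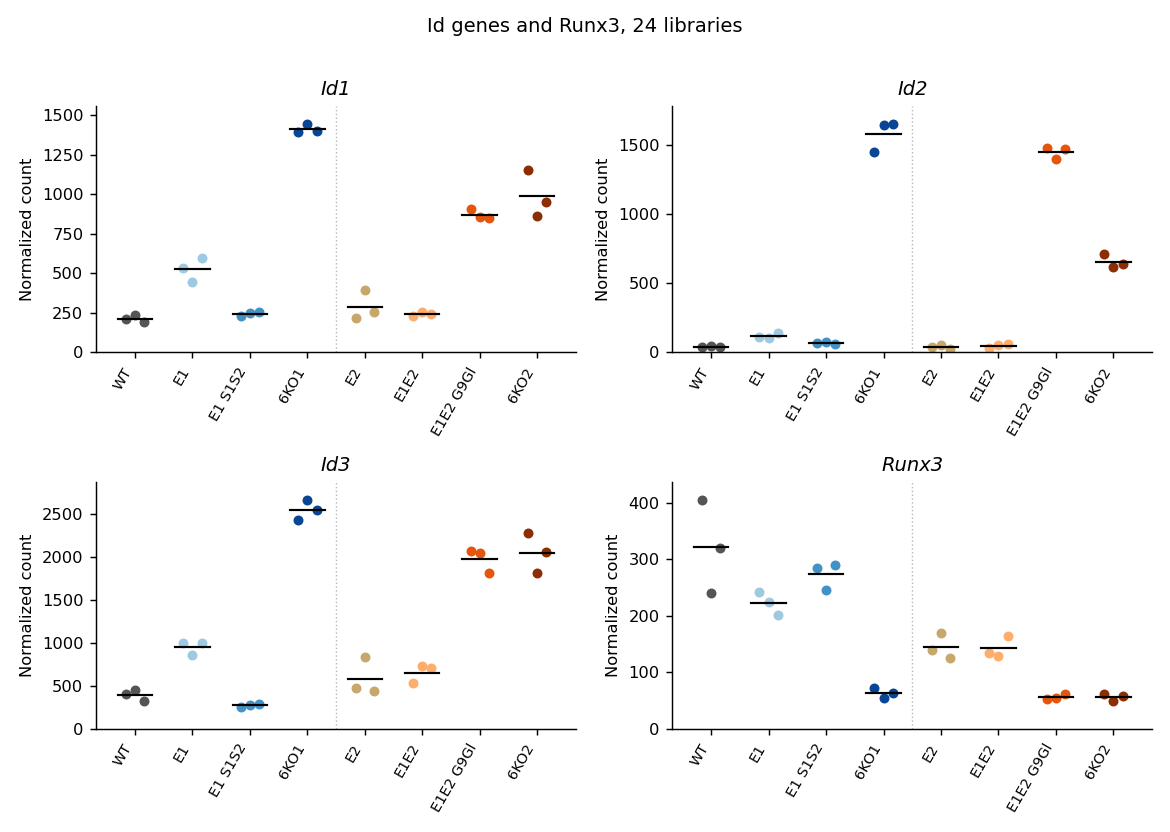
Normalized counts (linear axes from 0) of *Id1*, *Id2*, *Id3* and *Runx3* in each of the 24 libraries, with points for replicates 1 to 3 from left to right and a bar at the mean. The 3 *Id* genes are highest in *6KO1*, *E1E2 G9Gl* and *6KO2*, where *Runx3* is lowest.

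Of 37 other mesenchymal transcription factors 31 were tested, and their medians lay below that of all genes. *6KO1* had 12 downregulated and 2 upregulated (median -0.64 against 0.061 over all genes), *E1E2 G9Gl* had 11 and 3 (-0.55 against 0.0088), and *6KO2* had 6 and 3 (-0.23 against 0.041). Of all genes 10.2%, 8.41% and 5.39% were downregulated and 20.6%, 16.8% and 15.3% upregulated in these conditions. *E1 S1S2* had 6 and 1 (background 5.11% and 6.65%), *E2* had 6 and 2 (3.21% and 2.9%), *E1E2* had 4 and 3 (3.22% and 5.51%) and *E1* had 2 and 2 (1.99% and 2.27%). *Osr1*, a zinc finger gene of early mesoderm, went from 360 to 404 counts in WT to 0 to 1.96 in *6KO1*, 9.07 to 10.4 in *E1E2 G9Gl* and 78.4 to 101 in *6KO2*, and had 471 to 488 in *E1 S1S2* and 195 to 226 in *E1*. *Gli1* and *Gli2*, effectors of Hedgehog signals, had log2 fold changes of -4.04 and -4.62 in *6KO1* and of -2.89 and -3.16 in *6KO2* (all downregulated). *Gli2* was also downregulated in each of the other 5 conditions, with -4.50 in *E2* and -4.60 in *E1E2*, and *Gli1* in each of them but *E1*, where it fell by 0.98. *Alx1*, a homeobox gene of craniofacial mesenchyme, had 21.3 to 36.5 counts in WT and 0 in every library of both *6KO* lines and of *E1E2 G9Gl*. It was downregulated in the other conditions as well, with 0 to 1.19 counts in *E2*, 0 to 2.07 in *E1E2*, 0 to 0.906 in *E1 S1S2* and 5.86 to 10.9 in *E1*.

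Genes of TGF-beta and BMP signalling, pathways known to induce several of these factors, moved both ways. Of 20 tested, *6KO1* had 3 upregulated and 3 downregulated (median -0.15 against 0.061 over all genes, background 20.6% and 10.2%) and *6KO2* had 5 and 3 (0.25 against 0.041, 15.3% and 5.39%). *E1E2 G9Gl* had 3 and 3 (16.8% and 8.41%), *E1E2* had 4 and 2 (5.51% and 3.22%), *E1* had 0 and 2 (2.27% and 1.99%), *E1 S1S2* had 0 and 1 (6.65% and 5.11%), and *E2* had 0 and 0 (2.9% and 3.21%). *Bmp4*, a ligand, fell from 1119 to 1251 counts in WT to 128 to 143 in *6KO1* (-3.13 ± 0.11, adjusted p = 6.5e-17, edgeR) and to 328 to 365 in *6KO2* (8.2e-13), and also to 240 to 261 in *E1* and 231 to 270 in *E1E2*. It was downregulated in *E1 S1S2* (488 to 527) and *E1E2 G9Gl* (504 to 574) too, and did not pass in *E2* (-0.28). *Tgfbr2*, a receptor, was at -1.52 in *6KO1* and -1.41 in *6KO2*, and also at -1.21 in *E1* and -1.40 in *E1E2 G9Gl*. In the remaining conditions *Tgfbr2* fell by less than 2-fold. *Smad6*, an inhibitor of BMP signals, rose by 1.79 in *6KO1*, by 0.99 in *6KO2* and by 1.65 in *E1E2 G9Gl*. *Hmga2*, a chromatin protein that acts downstream of TGF-beta, was at -1.91 in *6KO1*, at -2.92 in *E1E2 G9Gl* and, less far, at -0.77 in *6KO2*, each past the test.

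The effector genes of the mesenchymal state, such as its matrix and surface proteins, had a lower median in *6KO1* and *E1 S1S2* than in *6KO2*. Of 30 listed 29 were tested. *6KO1* had 11 downregulated and 2 upregulated (median -0.70 against 0.061 over all genes), *6KO2* had 3 and 4 (-0.067 against 0.041), and *E1 S1S2* had 12 and 1 (-0.77 against -0.0048). Of all genes 10.2%, 5.39% and 5.11% were downregulated and 20.6%, 15.3% and 6.65% upregulated in these conditions. *E2* had 7 and 1 (background 3.21% and 2.9%), *E1* had 6 and 1 (1.99% and 2.27%), *E1E2* had 5 and 2 (3.22% and 5.51%) and *E1E2 G9Gl* had 6 and 6 (8.41% and 16.8%). Their summed level was 377882 to 405923 in WT, 225458 to 236493 in *6KO1* and 353182 to 356433 in *6KO2*. *Vim* fell by 0.49 in *6KO1* (3.1e-09) and was at -0.13 in *6KO2* (2.5e-02). It rose in *E1* (0.28), *E1 S1S2* (0.37) and *E1E2 G9Gl* (0.22). *Fn1* fell by 0.66 in *6KO1* and was at 0.16 in *6KO2*, and it also fell in *E2* (-0.57). *Cdh2*, the N-cadherin gene, rose by 1.27 ± 0.046 and 1.24 ± 0.046, and by 2.55 in *E1E2 G9Gl*.

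*Pdgfra*, a receptor of fibroblasts, had 117 to 151 counts in WT, 1.74 to 5.87 in *6KO1* and 73.4 to 81.7 in *6KO2*, and *E1E2 G9Gl* had 11.6 to 15.5. *Dcn*, a proteoglycan gene, had 25.6 to 43.8, 0 to 1.74 and 120 to 149 in the same order, and so fell in one line and rose in the other. It also rose in *E2* (85.7 to 143) and *E1E2* (80.6 to 106) and fell in *E1* (8.79 to 12.7) and *E1E2 G9Gl* (0 to 3.89). *Thy1*, a surface marker, had 188 to 209 in WT and at most 0.879 in *6KO1* and 4.14 in *6KO2*. It was also downregulated in *E1 S1S2* (0 to 1.8), *E2* (at most 28.7) and *E1E2* (44.3 to 55.8) and was upregulated in *E1E2 G9Gl* (390 to 426). *Fap*, a protease gene of activated fibroblasts, had 0 in WT, 78.2 to 89.7 in *6KO1* and 13.7 to 33.1 in *6KO2*.

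Epithelial genes, a class of targets that the Snail and Zeb repressors are known for, moved both ways in the *6KO* lines. Several rose from near 0 in WT. Of 32 listed, 18 passed the filter on low counts, and those that passed only through the mutant libraries had to be higher there, so their count is not evidence about the list. Of these 18, *6KO1* had 12 upregulated and 2 downregulated, *6KO2* had 11 and 5, and *E1E2 G9Gl* had 10 and 3 (background 20.6% and 10.2%, 15.3% and 5.39%, and 16.8% and 8.41%). *E1 S1S2* had 8 and 5 (6.65% and 5.11%), *E1E2* had 6 and 0 (5.51% and 3.22%), *E1* had 5 and 0 (2.27% and 1.99%) and *E2* had 3 and 2 (2.9% and 3.21%). *Grhl2*, an epithelial transcription factor, had at most 1.00 counts in WT, 178 to 196 in *6KO1*, 489 to 557 in *6KO2* and 828 to 938 in *E1E2 G9Gl*. *Krt14* (at most 2.13 in WT) had 233 to 262 in *6KO1* and 482 to 510 in *6KO2*, *Dsp* (at most 1.07) 110 to 119 and 50.7 to 76.6, and *Esrp1* (0 in WT) 16.7 to 27.9 and 8.27 to 19.9. *Dsp* was upregulated in every other mutant condition as well, with 55.3 to 64.5 counts in *E1* and 23.8 to 35.0 in *E2*. In *E1E2 G9Gl*, *Krt14* had 105 to 132 counts and *Esrp1* 41.4 to 47.4. *Cdh1* had 4.35 to 5.87 and 2.29 to 5.17 and was not tested, and *Epcam* fell from 7.31 to 14.1 counts to at most 3.52 and 3.31. The summed level of the 32 genes was 3628 to 3996 in WT, 2788 to 2857 in *6KO1*, 4608 to 5055 in *6KO2* and 8015 to 8148 in *E1E2 G9Gl*. In *E1 S1S2* it was 2087 to 2206. The sum was thus lower than in WT in *6KO1* and *E1 S1S2* and higher in *6KO2* and *E1E2 G9Gl*.

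Markers of other cell types were read in the same libraries, and their part in the changes of the factors was not tested. The summed levels in WT, *6KO1* and *6KO2* were 13 to 16, 191 to 230 and 118 to 165 for 8 endothelial genes, and 158 to 172, 643 to 700 and 219 to 247 for 10 blood genes. For 7 skeletal muscle genes they were 32.1 to 37.4, 367 to 392 and 146 to 177, and for 6 adipocyte genes 44.7 to 61.2, 275 to 322 and 76.5 to 112. For 8 neural genes, of which *Nes* and *Tubb3* are also expressed in fibroblasts, they were 12099 to 16476, 11711 to 13278 and 15167 to 16566, and for 10 pluripotency genes 7.31 to 18.1, 14.7 to 36.0 and 18.6 to 27.4. The upregulated genes of *6KO1* numbered 4 of 5 tested for endothelial, 3 of 5 for blood, 2 of 2 for muscle, 3 of 4 for adipocyte, 1 of 5 for neural and 2 of 3 for pluripotency genes, where 20.6% of all genes were upregulated. In *6KO2* they numbered 5, 2, 2, 2, 3 and 1 in the same order, where 15.3% of all genes were. Here too a gene that passed the filter only through the mutant libraries had to be higher there. Among those upregulated in *6KO1* were *Vwf* (64.4 to 87.0 counts), *Cdh5* (56.6 to 73.0), *Itgam* (57.7 to 65.9), *Des* (309 to 332) and *Pparg* (240 to 268). In WT these had at most 3.65, 3.20, 0, 34.7 and 47.2 counts. All but *Pparg* were also upregulated in *6KO2*. In *E1E2 G9Gl*, *Itgam* (497 to 519) and *Pparg* (323 to 375) were higher than in *6KO1*. The adipocyte gene *Cebpa* (-4.16) and the neural gene *Map2* (-2.20) were downregulated in *6KO1*. *Map2* had 7.46 to 16.4 counts in WT and 706 to 787 in *6KO2*. *Cldn5*, *Adgre1*, *Hbb-bs*, *Zfp42* and *Utf1* were at 0 in all 24 libraries. In *E1E2 G9Gl*, where *Snai1* fell, the sums were 72.5 to 94.8 for endothelial, 694 to 730 for blood, 319 to 342 for muscle, 1339 to 1389 for adipocyte, 12048 to 13052 for neural and 37.0 to 48.5 for pluripotency genes. In *E1 S1S2*, where *Prrx1* and *Snai2* fell, they were 44.1 to 53.2 for endothelial, 210 to 243 for blood, 107 to 117 for muscle, 11.0 to 15.4 for adipocyte, 19785 to 21461 for neural and 19.8 to 21.1 for pluripotency genes.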

How the data were processed

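RNA from 24 MEF cultures (8 conditions, 3 biological replicates each) was sequenced as stranded total RNA libraries. The authors trimmed reads with cutadapt 1.8.1, aligned them to GRCm38 with STAR 2.5.2b and counted them with TEtranscripts, and deposited whole-number counts per gene and repeat element without normalization. Repeat elements and 1 malformed entry were left out here, and 0 columns lacked a sample. Conditions come from the sample titles, since the treatment field names 4-OHT for every sample. Coordinates and shared exon bases were read from GENCODE (GRCm38). After edgeR's filterByExpr, 18565 genes went into a quasi-likelihood fit (edgeR 4.0.16, R 4.3.3) of all 24 libraries with TMM scaling and 1 coefficient per condition. P-values are two-sided and adjusted by Benjamini-Hochberg over these genes. This replaces the DESeq2 test of the paper, which was run as an alternative (DESeq2 1.42.0). An exact permutation test of 3 libraries against 3 cannot pass 0.05, so p-values rest on the spread edgeR estimates across genes. Library totals of 24737307 to 37419816 counts limit genes of few counts most, *Snai1* among the 10.

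The genes and gene lists were chosen with earlier results of these data known. All 10 factors are named. From each other list the text names the 4 genes with the largest change in *6KO1* among those called in either *6KO* line, and always *Vim*, *Fn1*, *Cdh2*, *Cdh1* and *Epcam*. For the 3 factors of widest range it names the 3 genes most alike. Not all genes the rule allows are printed. The targeted KMT genes, the genes around *Twist1* and markers at 0 were added. Alternatives were RLE factors, DESeq2, no filter, genes with mean counts above 100, only the 6 libraries compared, a replicate block and each library left out. Figures were drawn with matplotlib 3.10.9.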

Additional observations from a re-analysis of the deposited data

Results flagged for a closer look

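In the direct comparison of the 2 lines that lack all 6 enzymes, and in that of the 4-OHT effects in the 2 starting clones, 1 factor each passed the test with a difference of at least 2-fold, and these 2 are given again for a closer look. *Twist1* differed between the 2 lines that lack all 6 enzymes, where *6KO1* lay at -4.07 ± 0.17 on the log2 scale against *6KO2* (adjusted p = 3.5e-15, edgeR). The 3 *6KO1* libraries had 21.1, 21.8 and 10.8 normalized counts and those of *6KO2* 292, 330 and 298.

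The effect of 4-OHT on *Prrx1* differed between the starting clones by 1.13 on the log2 scale (SE 0.17, adjusted p = 4.2e-05, edgeR), from 2032, 2366 and 1950 counts in WT to 1174, 1193 and 1183 in *E1*, and from 2182, 1314 and 2187 in *E2* to 2271, 2280 and 2403 in *E1E2*. Without *E2* replicate 2, the low library, the difference was 0.92, past the test and below 2-fold. In both cases each side is 1 clone, so the mutations and the clone cannot be told apart.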

How the results depend on the processing

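Of 1293 alternative fits of single factors, 1223 kept their direction and their side of the threshold, 36 lost a call, 20 gained one and 14 changed sign. None of the sign changes was past the test in either fit: *Zeb2* in *6KO1* was 0.018 with genes above a mean count of 100, and the others came from leaving out 1 library. In those, *Runx1* ran from -0.13 to 0.19 in *E1* and from -0.028 to 0.30 in *E1 S1S2*. *Twist1* ran from -0.16 to 0.030 in *E1 S1S2*, from -0.17 to 0.027 in *E2* and from -0.13 to 0.068 in *E1E2*. In *E2*, *Twist2* ran from -0.033 to 0.17, *Prrx1* from -0.28 to 0.045 and *Zeb1* from -0.047 to 0.085. The cause was not tested. The downregulations of *Twist1* and *Tcf4* in *6KO1*, *Prrx1* and *Snai2* in *E1 S1S2* and *Snai1* in *E1E2 G9Gl* kept their call in every alternative fit that held the gene.

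Of 348 counts of factors under alternatives, 327 stayed within 1.5 times the main count. With only the libraries compared, 0 factors passed in *E2* (main count 3). With genes above a mean count of 100, which leaves out *Snai1*, 1 passed and 0 were 2-fold in *E1E2 G9Gl* against WT (3 and 1; *Tcf4* was also lost), and 0 were 2-fold from *E1E2* to *E1E2 G9Gl* (2; *Zeb1* was then under 2-fold) and from there to *6KO2* (1). Without a filter 3 passed in *E1E2* against *E2* (1). With RLE factors or DESeq2, 1 was 2-fold from *E1E2* to *E1E2 G9Gl*, without *Zeb1*. Leaving out 1 library gave 2 to 4 factors past in *E1 S1S2* against WT (2 without *E1 S1S2* replicate 1), 0 to 2 in *E1E2* against *E2*, 1 to 2 at 2-fold from *E1E2* to *E1E2 G9Gl* (1 without replicate 1 of either condition), and 0 to 2 at 2-fold in the comparison of 4-OHT effects (0 without *E2* replicate 2).

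Replicate numbers are shared across conditions, but deviations of same-numbered libraries correlated at -0.242 to 0.197, not above 0.1 in every pair, so the numbers do not pair the samples. With the replicate block, *Runx1* gained a call in *E2* (0.35) and *E1E2* (0.35) against WT, and no other call changed. Genes of few counts, *Snai1* among them, are the least precise at this depth.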
